A study of Arabidopsis thaliana with 24 samples.

Results

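The genes described here are 10 genes of Arabidopsis thaliana that make the indolic glucosinolates, the sulfur-rich defence compounds derived from tryptophan. They were chosen by gene identifier for their known place in the pathway. The rule used no measured value, but earlier results of these data were known when it was set. They are 10 of the 33612 genes in the deposited count table. All 10 were among the 22130 genes with enough counts to be tested. They comprise 2 transcription factors, 5 enzymes of the core pathway and 3 enzymes that decorate the indole ring.

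Poly(A) RNA was sequenced from whole 9-day-old seedlings of 4 genotypes, with 3 biological replicates each. The wild type is called WT. The pkl libraries carry the genotype pkl-1, a mutation of the chromatin remodeller PICKLE. The libraries labelled pif4 carry a mutation of the transcription factor PIF4 whose allele the labels do not name, and those labelled pklpif4 carry the genotype pkl-1pif4. By their labels, all 12 libraries share continuous white light and carry the number 28, read here as a temperature in °C. The values deposited for the red-light samples of the series are identical (0 of 403344 counts differed). The growth condition therefore rests on the column names. The PIF4 transcript was not reduced in the libraries named for its mutation: its mean was 100.4 normalised CPM (counts scaled to a common library size) in WT, 65.8 in pkl, 174 in pif4-labelled libraries and 148 in pklpif4-labelled libraries. The PKL transcript lay between 91.8 and 104 CPM on average in the 4 groups. The groups are therefore called by their labels, and an effect of PIF4 and any further difference between the plants so labelled cannot be told apart.

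Indolic glucosinolates are made from tryptophan, which the cytochromes P450 CYP79B2 and CYP79B3 convert to indole-3-acetaldoxime. CYP83B1 oxidises this oxime, a glutathione S-transferase such as GSTF9 is thought to add the sulfur donor glutathione, and the sulfotransferase SOT16 completes the core glucosinolate. CYP81F2 and CYP81F4 then hydroxylate the indole ring, CYP81F2 on a ring carbon and CYP81F4 on the ring nitrogen, and indole glucosinolate methyltransferases such as IGMT1 methylate the hydroxyl group on the carbon. MYB34 and MYB51 are MYB transcription factors that activate the core genes. The same oxime also leads to camalexin and, through nitriles, toward auxin.

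Total counts per library were 37762216 to 56492669. Replicates of a group differed by more than counting noise alone. The chi-square per degree of freedom between pairs was 1.69 to 2.09, computed on halved counts and without the genes of lowest count. The seedlings differed in tissue markers. The summed level of 15 root genes ranged from 131 to 138 CPM for WT and from 226 to 234 for pkl, and it was 233 to 244 for pif4-labelled and 184 to 192 for pklpif4-labelled libraries, and each of the 15 genes had counts in every group. The summed level of 11 genes of green tissue was 39910 to 40660 CPM in WT, 29720 to 30810 in pkl, 35280 to 35430 in pif4-labelled and 43100 to 44210 in pklpif4-labelled libraries. The summed level of 10 seed genes was 51.5 to 54.5 CPM in WT, 61.0 to 67.6 in pkl, 54.7 to 56.6 in pif4-labelled and 4004 to 4050 in pklpif4-labelled libraries, and SESA1 and SESA4 had no count in WT, and SESA1 and SESA3 none in pif4-labelled libraries. In pkl, 8 of these seed genes were higher and 2 lower than in WT, which the sum does not show. In whole seedlings, fewer cells of a type and less RNA per cell cannot be told apart.

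Sequences of the ring-decorating genes are shown first, since each of the 3 stood in a different order over the 4 genotypes. Each line gives the 300 bases from 250 before to 50 after the RefSeq start on TAIR10.1, written 5′ to 3′ on the strand of the gene. CYP81F4 lies at chr4:17590522-17590821 on the plus strand, IGMT1 at chr1:7388463-7388762 on the minus strand and CYP81F2 at chr5:23187590-23187889 on the plus strand. Capitals mark matches to the motifs searched, on either strand.
CYP81F4: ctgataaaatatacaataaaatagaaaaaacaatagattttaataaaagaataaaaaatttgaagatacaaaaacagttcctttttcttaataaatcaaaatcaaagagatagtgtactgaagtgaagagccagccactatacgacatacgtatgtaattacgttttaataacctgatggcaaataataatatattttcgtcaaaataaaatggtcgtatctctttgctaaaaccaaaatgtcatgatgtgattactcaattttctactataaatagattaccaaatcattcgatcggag
IGMT1: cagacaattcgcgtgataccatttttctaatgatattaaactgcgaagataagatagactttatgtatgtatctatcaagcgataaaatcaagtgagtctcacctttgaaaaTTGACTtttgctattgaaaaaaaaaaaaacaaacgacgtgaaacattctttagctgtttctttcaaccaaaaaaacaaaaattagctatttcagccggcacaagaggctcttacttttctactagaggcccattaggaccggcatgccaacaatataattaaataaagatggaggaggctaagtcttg
CYP81F2: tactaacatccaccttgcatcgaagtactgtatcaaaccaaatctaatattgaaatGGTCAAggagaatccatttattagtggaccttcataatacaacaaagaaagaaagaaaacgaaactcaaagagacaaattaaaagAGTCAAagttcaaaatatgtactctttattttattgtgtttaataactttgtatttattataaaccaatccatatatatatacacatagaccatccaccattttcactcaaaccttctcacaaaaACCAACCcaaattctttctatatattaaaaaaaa
The motifs were the G-box CACGTG, the related CATGTG, which PIF proteins bind, the W-box forms TTGACC and TTGACT, which WRKY factors bind, and ACCTACC and ACCAACC, which MYB factors bind. Their matches in these 3 windows did not overlap one another. The windows follow RefSeq starts, which are not always those of the gene models that were counted. For MYB34, CYP79B2, CYP79B3, CYP83B1, GSTF9 and IGMT1 the window lies wholly upstream of the counted model. The MYB34 window, for example, ends at chr5:24494340, and its counted model begins at 24494691. The G-box stands in 7.68% of the 27443 promoters of this length and in 0 of the 10 windows. CATGTG stands in 12.9% of promoters and in MYB51 alone among the 10. TTGACC (14.2% of promoters) matched in CYP81F2, and TTGACT (21.9%) in CYP81F2 and IGMT1. ACCTACC (1.38%) matched in 0 of the 10, and ACCAACC (3.29%) in CYP83B1, SOT16 and CYP81F2. Counted from the RefSeq start, the ACCAACC match lay upstream in SOT16, at -238 to -232. It lay after the start in CYP83B1, at 32 to 38, and in CYP81F2, at 16 to 22. The CYP81F4 window held none of the 6. A match describes letters and does not show a bound site.

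The order of transcript levels in WT was set on a per-length scale, the deposited FPKM, in which counts are divided by gene length and library total. GSTF9 stood highest, at 131.8 ± 0.534 FPKM (mean ± SD, n = 3), and CYP81F2 lowest, at 1.30 ± 0.122. Between them came CYP79B3 at 57.6 ± 0.383, CYP83B1 at 40.7 ± 0.950, IGMT1 at 27.2 ± 0.176, CYP81F4 at 26.6 ± 2.46, SOT16 at 22.4 ± 0.725, CYP79B2 at 16.6 ± 0.685, MYB34 at 14.9 ± 1.54 and MYB51 at 4.59 ± 0.442. The WT ranges of IGMT1 and CYP81F4 overlapped, as did those of CYP79B2 and MYB34. The top and the bottom of this order were the same in all 4 genotypes, and the middle was not. In pkl, CYP83B1 reached 63.1 ± 1.53 FPKM and stood above CYP79B3, at 57.2 ± 1.91. In the pif4-labelled libraries IGMT1 (50.1 ± 1.62) and CYP81F4 (45.0 ± 0.950) both stood above CYP83B1 (38.7 ± 0.590). In the pklpif4-labelled libraries CYP81F4 was eighth, at 18.4 ± 1.13 FPKM, and the ranges of neighbours in the order overlapped from SOT16 down to CYP81F4.

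**Figure D1:**
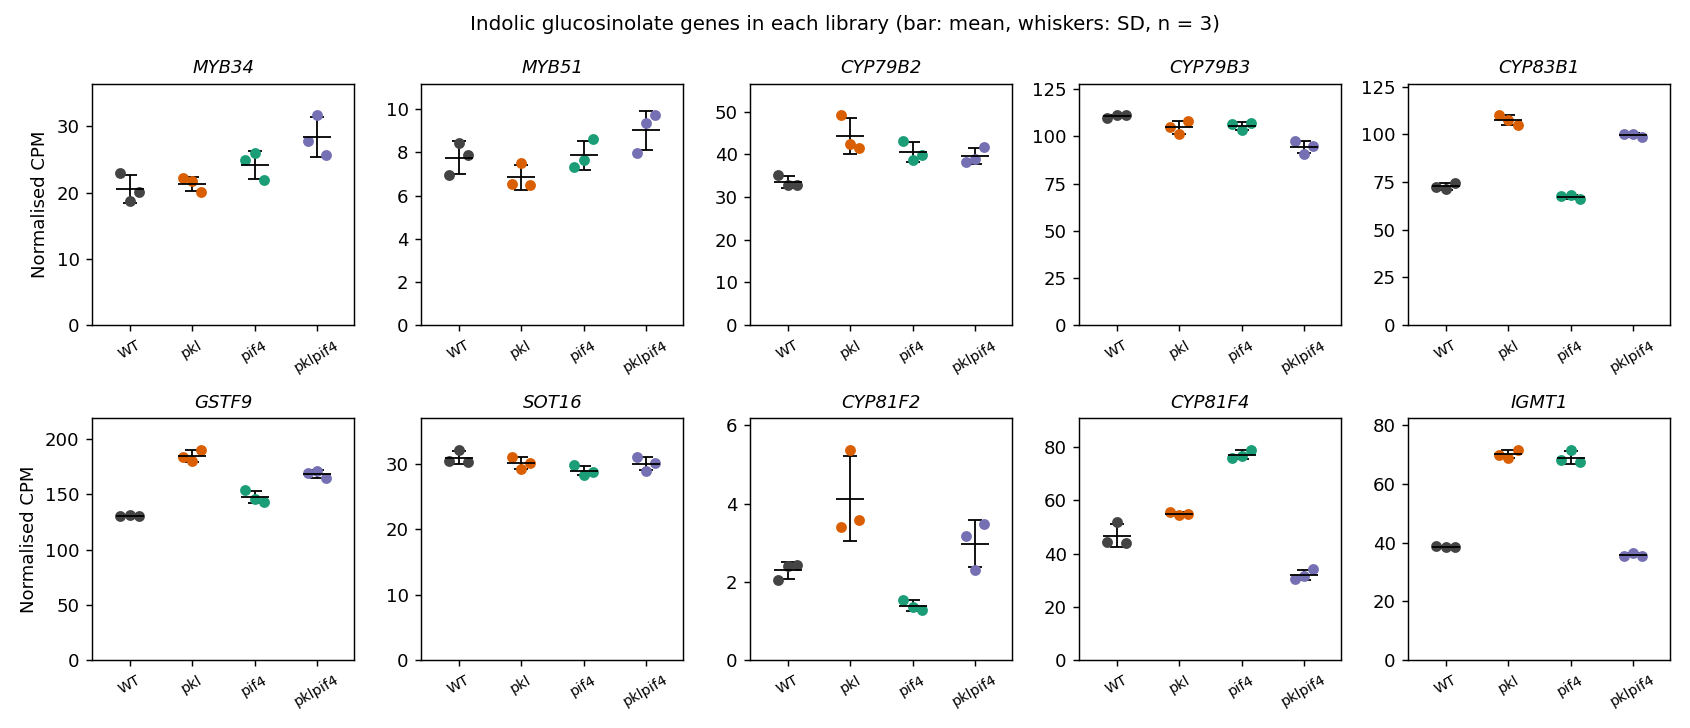
Normalised CPM (linear axis from 0) of each of the 10 genes in the 3 libraries of WT, pkl, pif4-labelled and pklpif4-labelled seedlings. Points are libraries, bars the group means and whiskers the SD. The pif4-labelled points of CYP81F4, from 75.8 to 79.0, lie above all other groups, and its pklpif4-labelled points, from 30.3 to 34.1, lie below them.

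Of the 10 genes, 6 were higher and 1 lower in pkl than in WT, where 27.1% and 26.5% of all tested genes were called higher and lower by edgeR's quasi-likelihood test at a Benjamini-Hochberg adjusted p below 0.05. In the pif4-labelled libraries 5 were higher and 2 lower, against 16.2% and 16.2% of all tested genes. In the pklpif4-labelled libraries 4 were higher and 2 lower than in WT, against 27.2% and 27.7%. The 3 comparisons share the same WT libraries. The median log2 change of the 10 genes was 0.32 in pkl, 0.10 in pif4-labelled libraries and 0.23 in pklpif4-labelled libraries, while the median over all tested genes lay at 0.00060, 0.00014 and -0.0018. Scaling to library totals in place of TMM factors moved the share of called genes that were higher from 50.5% to 62.0% in pkl and from 49.97% to 61.2% in pif4-labelled libraries.

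Of the regulators, MYB34 stood at 23.0, 18.8 and 20.1 CPM in WT, at 22.2, 21.8 and 20.05 in pkl, at 24.9, 25.9 and 21.9 in pif4-labelled libraries and at 27.9, 31.7 and 25.7 in pklpif4-labelled libraries. Every pklpif4-labelled value lay above every WT and pkl value, and the pif4-labelled range overlapped both WT and pklpif4-labelled ranges. MYB34 rose 1.38-fold in pklpif4-labelled libraries (log2 change 0.46, SE 0.07, adjusted p = 1.95e-08 with edgeR). Its rise in pif4-labelled libraries was 1.17-fold (log2 0.23, SE 0.07, adjusted p = 0.00795), and it did not pass without WT replicate 2 (adjusted p = 0.102) or pif4 replicate 2 (adjusted p = 0.0982). In pkl its log2 change was 0.04 (SE 0.07, adjusted p = 0.635), with a 95% interval from -0.10 to 0.19.

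MYB51 stood at 6.95, 8.43 and 7.89 CPM in WT, at 6.56, 7.53 and 6.49 in pkl, at 7.34, 7.65 and 8.61 in pif4-labelled libraries and at 7.98, 9.35 and 9.72 in pklpif4-labelled libraries. The groups overlapped, except that the pklpif4-labelled values lay above those of pkl. MYB51 passed the test, adjusted or not, in 0 of the 3 comparisons with WT (edgeR adjusted p = 0.205, 0.908 and 0.092 for pkl, pif4-labelled and pklpif4-labelled libraries). Between pklpif4-labelled and pkl libraries MYB51 was 1.31-fold higher (log2 0.40, SE 0.11, adjusted p = 0.00294), and MYB34 was 1.34-fold higher (log2 0.42, SE 0.07, adjusted p = 3.44e-07). The share of MYB34 in the summed FPKM of MYB34, MYB51 and the related factor MYB122 was 75.8% ± 3.44 in WT, 76.4% ± 1.84 in pkl, 76.8% ± 3.12 and 76.5% ± 3.93 in pif4-labelled and pklpif4-labelled libraries (SD, n = 3, two-sided exact permutation p = 0.9, 0.7 and 1.0 against WT).

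At the entry to the pathway, CYP79B2 rose in all 3 mutants, and CYP79B3 fell most clearly in pklpif4-labelled libraries. CYP79B2 stood at 35.2, 32.8 and 32.8 CPM in WT, at 49.1, 42.4 and 41.5 in pkl, at 43.1, 38.7 and 39.8 in pif4-labelled libraries and at 38.1, 38.8 and 41.7 in pklpif4-labelled libraries. All 9 mutant values lay above all WT values. CYP79B2 rose 1.32-fold in pkl (log2 0.40, SE 0.05, adjusted p = 4.08e-10), 1.20-fold in pif4-labelled libraries (log2 0.27, SE 0.06, adjusted p = 3.51e-05) and 1.17-fold in pklpif4-labelled libraries (log2 0.23, SE 0.06, adjusted p = 0.000189).

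CYP79B3, the more abundant of the pair, stood at 110.0, 111 and 111 CPM in WT, at 105, 101 and 108 in pkl, at 106, 103 and 107 in pif4-labelled libraries and at 97.6, 90.9 and 94.9 in pklpif4-labelled libraries. The pklpif4-labelled values were the lowest and did not overlap any other group. The fall there was 14.8% (log2 -0.23, SE 0.03, adjusted p = 5.70e-09). The fall in pkl was 5.27% (log2 -0.08, SE 0.03, adjusted p = 0.0443), and it did not pass under 7 other settings or when any 1 WT library, pkl replicate 1 or pkl replicate 2 was left out (adjusted p = 0.0579 to 0.811). The share of CYP79B2 in the summed FPKM of the pair was 22.3% ± 0.828 in WT, 28.6% ± 2.05 in pkl, 26.7% ± 0.931 in pif4-labelled and 28.4% ± 1.25 in pklpif4-labelled libraries (SD, n = 3). Each of these 3 differences had an exact permutation p of 0.1, the smallest that 3 against 3 libraries allow, so none can pass 0.05.

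CYP83B1, which commits the oxime to the glucosinolate route, stood at 72.5, 71.1 and 74.3 CPM in WT, at 110.0, 108 and 105 in pkl, at 67.6, 68.2 and 66.3 in pif4-labelled libraries and at 100.3, 100.3 and 98.5 in pklpif4-labelled libraries. The 4 groups did not overlap, and the groups with the pkl mutation were the high ones. CYP83B1 rose 1.48-fold in pkl (log2 0.56, SE 0.04, adjusted p = 1.40e-27) and 1.37-fold in pklpif4-labelled libraries (log2 0.46, SE 0.04, adjusted p = 2.04e-21). In the pif4-labelled libraries it fell by 0.11 on the log2 scale (SE 0.04, adjusted p = 0.0151), a call lost without WT replicate 3 (adjusted p = 0.0781) or pif4 replicate 3 (adjusted p = 0.0618), with library totals (0.127) and with limma on FPKM (0.0989 and 0.101).

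GSTF9 stood at 131, 131 and 130.1 CPM in WT, at 184, 180.0 and 190.3 in pkl, at 154, 146 and 143 in pif4-labelled libraries and at 170, 171 and 164 in pklpif4-labelled libraries. The groups stood in the order WT, pif4-labelled, pklpif4-labelled and pkl, from low to high, without overlap. The rises over WT were 1.41-fold in pkl (log2 0.50, SE 0.03, adjusted p = 8.61e-30), 1.13-fold in pif4-labelled (log2 0.18, SE 0.03, adjusted p = 4.18e-07) and 1.29-fold in pklpif4-labelled libraries (log2 0.37, SE 0.03, adjusted p = 9.31e-21). SOT16, at the end of the core pathway, lay between 28.34 and 32.14 CPM in all 12 libraries. Its log2 change was -0.03 in pkl (95% interval -0.15 to 0.08), -0.09 in pif4-labelled libraries (-0.21 to 0.02) and -0.04 in pklpif4-labelled libraries (-0.16 to 0.07), and 0 of these passed (adjusted p = 0.649, 0.222 and 0.544). Unadjusted, 0 of the 3 passed in edgeR either, and 0 passed after adjustment in DESeq2 or limma.

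**Figure D2:**
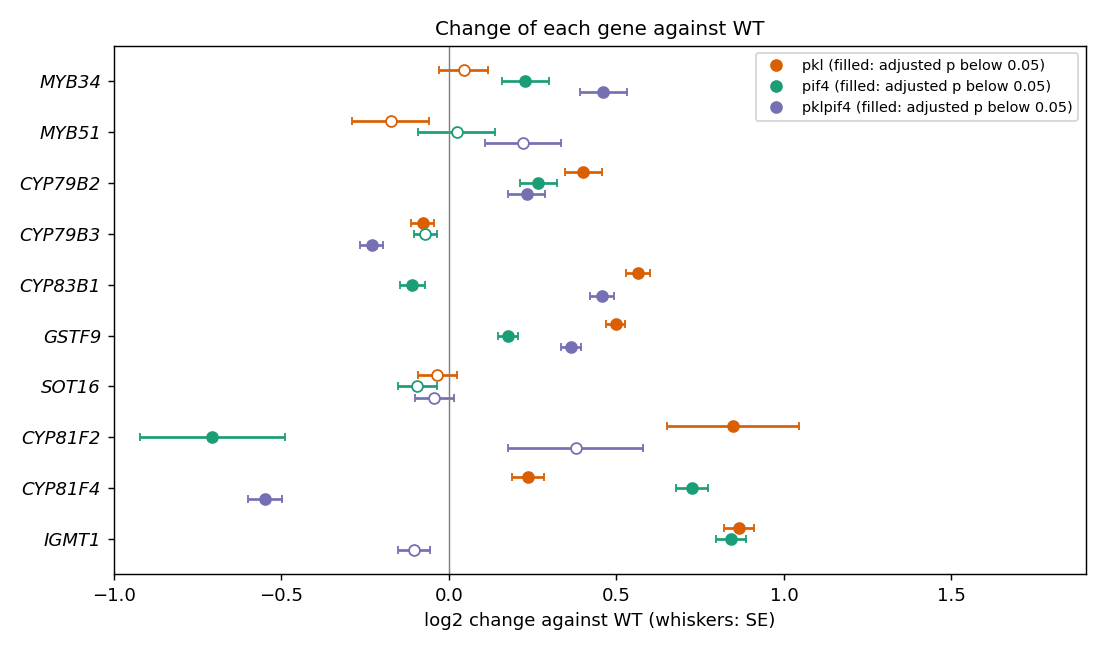
Log2 change of each gene against WT in pkl (orange), pif4-labelled (green) and pklpif4-labelled (purple) libraries, with the SE as whiskers, and filled points where the edgeR adjusted p was below 0.05. IGMT1 lies at 0.87 and 0.84 in the single mutants and at -0.10 in pklpif4-labelled libraries, and SOT16 lies near 0 in all 3.

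IGMT1, the methyltransferase, rose in both single mutants and not in the double mutant. It stood at 38.8, 38.4 and 38.4 CPM in WT, at 70.0, 69.0 and 71.7 in pkl, at 68.1, 71.5 and 67.5 in pif4-labelled libraries and at 35.6, 36.4 and 35.6 in pklpif4-labelled libraries. The pkl and pif4-labelled libraries were high and overlapped each other, and the pklpif4-labelled libraries were the lowest. IGMT1 rose 1.82-fold in pkl (log2 0.87, SE 0.04, adjusted p = 3.28e-34) and 1.79-fold in pif4-labelled libraries (log2 0.84, SE 0.04, adjusted p = 7.12e-33). In the pklpif4-labelled libraries the log2 change against WT was -0.10 (SE 0.05, adjusted p = 0.0536). That value passed only without pif4 replicate 2 (adjusted p = 0.0499) among the settings tried.

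CYP81F4 stood at 44.3, 51.8 and 44.2 CPM in WT, at 55.7, 54.6 and 54.7 in pkl, at 75.8, 76.9 and 79.0 in pif4-labelled libraries and at 30.3, 31.5 and 34.1 in pklpif4-labelled libraries. The 4 groups did not overlap. CYP81F4 rose 1.18-fold in pkl (log2 0.24, SE 0.05, adjusted p = 1.15e-05) and 1.65-fold in pif4-labelled libraries (log2 0.73, SE 0.05, adjusted p = 1.36e-26). In the pklpif4-labelled libraries it fell by 31.6% (log2 -0.55, SE 0.05, adjusted p = 8.53e-18). A gene model on the opposite strand, AT4G37409 at chr4:17590769-17592911, covers nearly the same bases, and its total count of 24169 was 85.1% of the 28404 counts of CYP81F4. No strand setting of the counting is given in the sources used here, so reads of the 2 models cannot be told apart.

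CYP81F2 was the least abundant of the 10, with 52 to 227 counts per library. It stood at 2.04, 2.39 and 2.43 CPM in WT, at 3.41, 5.37 and 3.58 in pkl, at 1.54, 1.35 and 1.29 in pif4-labelled libraries and at 3.16, 2.30 and 3.47 in pklpif4-labelled libraries. The pif4-labelled libraries were the lowest and pkl replicate 2 the highest. CYP81F2 rose 1.80-fold in pkl (log2 0.85, SE 0.20, adjusted p = 0.000125) and fell by 38.7% in pif4-labelled libraries (log2 -0.71, SE 0.22, adjusted p = 0.0066), the latter call missing the threshold with limma on log2(FPKM + 1) (adjusted p = 0.0528). Its log2 change in pklpif4-labelled libraries was 0.38 (SE 0.20, adjusted p = 0.105), and without pklpif4 replicate 2 it was 0.54 (adjusted p = 0.0327).

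The double mutant was also set against each single mutant. Against pkl, 2 of the 10 genes were higher and 7 lower in pklpif4-labelled libraries, where 19.5% and 20.5% of all tested genes were called. The median log2 change was -0.14, against 0.0061 over all tested genes. With library totals the share of called genes that were higher fell from 48.8% to 37.4%. IGMT1 was 1.957-fold lower (log2 -0.97, SE 0.04, adjusted p = 6.39e-38) and CYP81F4 1.72-fold lower (log2 -0.79, SE 0.05, adjusted p = 7.56e-28). CYP79B2, CYP79B3, GSTF9 and CYP83B1 changed less, by log2 values of -0.17, -0.15, -0.13 and -0.11. CYP81F2 was 27.8% lower (log2 -0.47, SE 0.19, adjusted p = 0.0412), a call that did not pass without pkl replicate 2 (log2 -0.24, adjusted p = 0.437) or pklpif4 replicate 2 (log2 -0.31, adjusted p = 0.27). The CYP79B2 call did not pass without pkl replicate 1 (log2 -0.09, adjusted p = 0.27) or pklpif4 replicate 1 (log2 -0.14, adjusted p = 0.0562), nor did that of CYP83B1 without pkl replicate 1 (adjusted p = 0.0645).

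Against the pif4-labelled libraries, 4 genes were higher and 3 lower in pklpif4-labelled libraries, where 25.5% and 24.7% of all tested genes were called. The median log2 change was 0.12, against 0.0072 over all tested genes. CYP81F4 was 2.42-fold lower (log2 -1.27, SE 0.05, adjusted p = 4.34e-45) and IGMT1 1.93-fold lower (log2 -0.95, SE 0.05, adjusted p = 5.40e-37). CYP81F2 was 2.12-fold higher (log2 1.08, SE 0.21, adjusted p = 6.65e-06) and CYP83B1 1.48-fold higher (log2 0.57, SE 0.04, adjusted p = 2.51e-27). The remaining calls were smaller, with CYP79B3 10.5% lower, GSTF9 1.14-fold higher and MYB34 1.17-fold higher. The MYB34 difference did not pass without pif4 replicate 3 (adjusted p = 0.0673), without pklpif4 replicate 2 (log2 0.15, adjusted p = 0.121) or with limma on FPKM (0.0547 and 0.055).

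The interaction is the pkl effect in pif4-labelled background minus the pkl effect in WT, on the log2 scale. It passed the test for 4 of the 10 genes, all with a negative value, and for 0 with a positive one, against 16.5% of all tested genes with a negative and 15.3% with a positive value. The median was -0.04 for the 10 genes and -1.3e-05 over all tested genes. With library totals the positive share of calls over all genes fell from 48.1% to 31.1%. For IGMT1 the single-mutant changes summed to 1.71 and the measured change was -0.10, an interaction of -1.81 (SE 0.06, adjusted p = 7.62e-48). For CYP81F4 the sum was 0.96 and the measured change -0.55, an interaction of -1.51 (SE 0.07, adjusted p = 1.59e-38). CYP79B2 (-0.44, SE 0.08, adjusted p = 1.49e-06) and GSTF9 (-0.31, SE 0.04, adjusted p = 5.56e-10) had smaller negative values. For CYP83B1 the sum and the measured change were both 0.46, and the 95% interval of the interaction ran from -0.10 to 0.10. MYB51 had a value of 0.37 (unadjusted p = 0.0239, adjusted p = 0.0692), and 0 positive calls came from DESeq2 or limma.

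**Figure D3:**
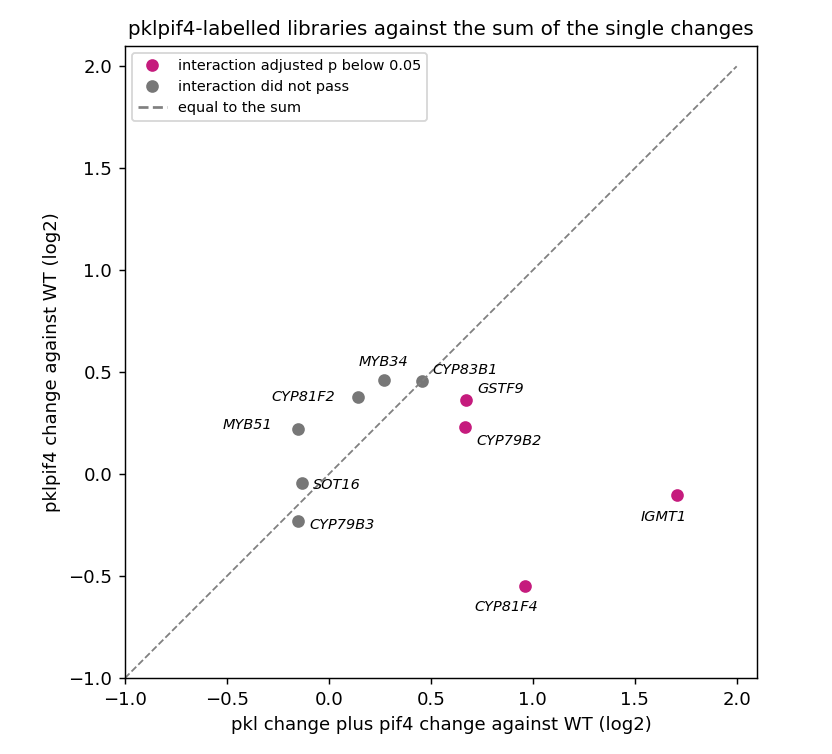
Measured log2 change of the pklpif4-labelled libraries against WT (vertical) and the sum of the log2 changes in pkl and in pif4-labelled libraries (horizontal), 1 point per gene. The dashed line marks equality, and pink points had an interaction adjusted p below 0.05. IGMT1, at 1.71 and -0.10, and CYP81F4, at 0.96 and -0.55, lie furthest below the line, and CYP83B1 lies on it.

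Most root marker genes rose in the single mutants, as IGMT1 and CYP81F4 did. Most also rose in pklpif4-labelled libraries, where these 2 genes did not. Of the 15 root genes, 11 were higher and 1 lower in pkl, and 14 higher and 0 lower in pif4-labelled libraries. In pklpif4-labelled libraries 11 were higher and 2 lower. The interaction passed with a negative value for 11 and a positive one for 0. Of all tested genes, 27.1% and 26.5% were called higher and lower in pkl, and 16.2% and 16.2% in pif4-labelled libraries. For pklpif4-labelled libraries the shares were 27.2% and 27.7%, and 16.5% and 15.3% had a negative and a positive interaction. The summed root level of the pklpif4-labelled libraries lay above that of WT. The 2 root genes that fell there were IRT1, the root iron transporter, and FRO2, the root ferric reductase. IRT1 changed by log2 values of 0.19, 1.79 and -2.13 in the pkl, pif4-labelled and pklpif4-labelled libraries, and FRO2 by 0.53, 1.901 and -0.77, all past the threshold. Of the 11 green-tissue genes, 11 fell in pkl, 10 fell in pif4-labelled libraries, and 5 rose and 2 fell in pklpif4-labelled libraries, and their interaction was positive for 11 of 11. Of the 10 seed genes, 8 rose and 2 fell in pkl, with a median log2 change of 2.43. In pif4-labelled libraries 3 rose and 2 fell, and all 10 rose in pklpif4-labelled libraries. The part of these tissue differences in the values of the 10 genes was not tested.

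IGMT1 has close copies on chromosome 1, and the last 60 coding bases are shown as an example. IGMT2 and IGMT4 are more like IGMT1 in this stretch than over the whole coding sequence. Each line is read from the TAIR10.1 genome on the coding strand, with capitals where a base differs from IGMT1.
IGMT1: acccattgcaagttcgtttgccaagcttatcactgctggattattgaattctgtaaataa
IGMT2: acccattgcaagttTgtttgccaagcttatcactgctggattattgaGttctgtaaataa
IGMT3: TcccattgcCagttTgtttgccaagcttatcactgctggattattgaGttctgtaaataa
IGMT4: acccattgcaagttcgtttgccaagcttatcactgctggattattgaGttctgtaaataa
Over the aligned coding sequence IGMT1 was 92.5% identical to IGMT2, 93.0% to IGMT3 and 93.0% to IGMT4. With IGMT4 it shared a run of 149 identical bases, and 50 of its 1023 windows of 100 bases occurred there too, against 0 windows for IGMT2 and IGMT3. How reads that match several copies were counted is not given in the sources used here, so the split between IGMT1 and IGMT4 is uncertain.

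IGMT2, IGMT3 and IGMT4 rose in pklpif4-labelled libraries, where IGMT1 did not. IGMT4, the other abundant copy, had means of 49.2, 58.0, 64.4 and 59.9 CPM in WT, pkl, pif4-labelled and pklpif4-labelled libraries, and it rose in all 3 comparisons (log2 0.24, 0.39 and 0.28, adjusted p = 1.81e-06, 4.94e-13 and 1.75e-08). IGMT2 and IGMT3 were scarce in WT, at 0.725 and 2.21 CPM, and rose in pklpif4-labelled libraries to 3.97 and 5.62 CPM (log2 2.42 and 1.35). IGMT5, a more distant relative that acts on the ring nitrogen product, rose from 6.20 CPM to 22.9 in pkl, 12.3 in pif4-labelled and 19.3 in pklpif4-labelled libraries (log2 1.89, 0.99 and 1.65). IGMT1 made up 43.6% ± 0.404 of the summed FPKM of IGMT1 to IGMT4 in WT, 52.3% ± 0.356 in pkl, 50.8% ± 1.71 in pif4-labelled and 34.9% ± 0.168 in pklpif4-labelled libraries (SD, n = 3). The groups other than pkl and pif4-labelled did not overlap, and each exact permutation p against WT was 0.1.

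Among the CYP81F relatives, CYP81F4 made up 69.7% ± 2.56 of the summed FPKM of CYP81F1 to CYP81F4 in WT, 64.6% ± 1.70 in pkl, 80.5% ± 0.547 in pif4-labelled and 57.9% ± 1.64 in pklpif4-labelled libraries (exact permutation p = 0.1 each). CYP81F3, 81.7% identical to CYP81F4 in coding sequence and its neighbour by identifier, rose from 0.800 CPM in WT to 2.52, 1.901 and 1.95 in the 3 mutants (log2 1.62, 1.21 and 1.25). CYP81F1 rose in pkl (log2 0.46, adjusted p = 4.80e-08) and did not pass in the other two. GSTF10, the closest relative of GSTF9, rose from 73.2 CPM to 171, 98.5 and 137 (log2 1.22, 0.43 and 0.91), and the GSTF9 share of the pair was 64.8% ± 0.986 in WT and 52.7% ± 0.116, 60.7% ± 1.18 and 55.9% ± 0.718 in the 3 mutants (exact permutation p = 0.1 each).

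**Figure D4:**
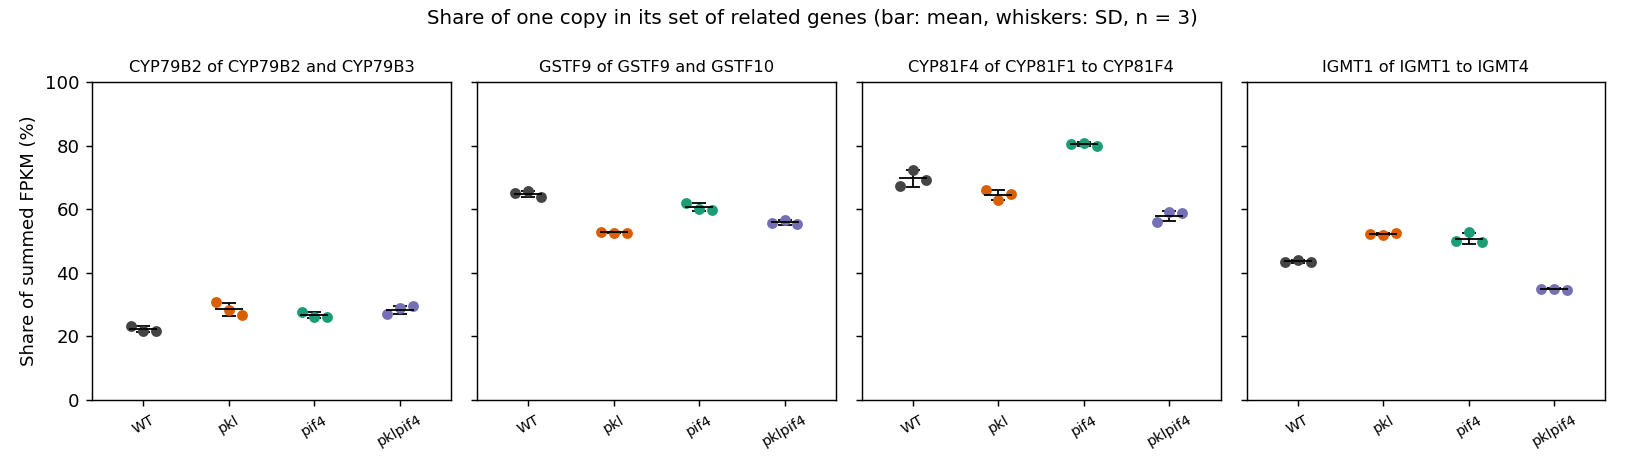
Share of 1 gene in the summed FPKM of its set of related genes, in percent, by genotype label, with points for libraries, bars for means and whiskers for the SD. The IGMT1 share was lowest in pklpif4-labelled libraries, at 34.9%, and the CYP81F4 share highest in pif4-labelled libraries, at 80.5%.

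A list of 42 further genes around the pathway was counted beside the 10. In pkl 25 rose and 5 fell, in pif4-labelled libraries 14 rose and 14 fell, and in pklpif4-labelled libraries 18 rose and 17 fell. Over all tested genes, 27.1% rose and 26.5% fell in pkl, and 16.2% rose and 16.2% fell in pif4-labelled libraries. In pklpif4-labelled libraries 27.2% rose and 27.7% fell. The same shares stand behind the counts of the smaller lists that follow. The median log2 changes of the 42 genes were 0.24, -0.03 and 0.02. The interaction passed with a negative value for 22 of them and with a positive one for 6, against 16.5% and 15.3% of all tested genes. Of 10 genes that supply tryptophan, 5 rose and 1 fell in pkl, 0 rose and 5 fell in pif4-labelled libraries, and 4 rose and 2 fell in pklpif4-labelled libraries. Among them PAI2, a phosphoribosylanthranilate isomerase, had means of 6.61, 8.52, 2.22 and 4.14 CPM in WT, pkl, pif4-labelled and pklpif4-labelled libraries (log2 0.37, -1.57 and -0.68 against WT, all past the threshold).

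Of the 6 other core genes, 3 rose and 0 fell in pkl, 2 rose and 1 fell in pif4-labelled libraries, and 2 rose and 4 fell in pklpif4-labelled libraries. The 4 that fell there were GGP1 (log2 -0.67), GGP3 (-0.35), the C-S lyase SUR1 (-0.68) and the glucosyltransferase UGT74B1 (-0.25), which act between GSTF9 and SOT16. These steps also serve the aliphatic glucosinolates. The kinases APK1 and APK2, which make the sulfate donor used by SOT16, fell in pklpif4-labelled libraries by 0.43 and 0.60 on the log2 scale. Both also fell in pif4-labelled libraries (log2 -0.20 and -0.38), and APK2 fell in pkl (log2 -0.21), all past the threshold. APK1 did not pass in pkl. Of the 6 other regulators, 4 rose and 1 fell in pkl, 4 rose and 0 fell in pif4-labelled libraries, and 3 rose and 2 fell in pklpif4-labelled libraries. MYC2, a bHLH factor of jasmonate signalling that works with the MYB factors, had means of 27.7, 59.1, 36.9 and 32.5 CPM in the 4 groups, with its highest level in pkl (log2 1.09, 0.41 and 0.23). MYB122, a scarce relative of MYB34, had 2 to 16 counts per WT library and rose in all 3 mutants, to means of 0.975, 0.817 and 1.31 CPM from 0.191 in WT (log2 2.26, 2.00 and 2.68).

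At the branches that use the same oxime or its products, 3 of 6 genes rose and 1 fell in pkl, 1 rose and 4 fell in pif4-labelled libraries, and 1 rose and 5 fell in pklpif4-labelled libraries. NIT2, a nitrilase, had means of 498, 959, 12.9 and 130.1 CPM in WT, pkl, pif4-labelled and pklpif4-labelled libraries (log2 0.95, -5.27 and -1.94). NIT1, a tandem relative, had 1438, 1756, 640.0 and 611 CPM (log2 0.29, -1.17 and -1.23). CYP71A13, which draws the oxime toward camalexin, fell in pkl and in pklpif4-labelled libraries (log2 -2.10 and -1.39), and stood at 7.52 CPM in pif4-labelled libraries against 5.83 in WT (log2 0.37, adjusted p = 0.0547). CYP71A12 and PAD3, also of the camalexin branch, fell in pif4-labelled (log2 -2.91 and -1.50) and pklpif4-labelled libraries (log2 -4.59 and -2.12). CYP71A12 was down to 2 to 8 counts per pklpif4-labelled library. Of the 3 genes of transport, 1 rose and 1 fell in pkl. In pif4-labelled and in pklpif4-labelled libraries alike, 1 of them rose and 2 fell. Of the 3 genes of breakdown, 3 rose and 0 fell in pkl. In pif4-labelled and in pklpif4-labelled libraries alike, 2 of these rose and 0 fell.

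The aliphatic glucosinolate genes, which use methionine, are the nearest comparison. Of 16, 2 rose and 12 fell in pkl, 2 rose and 11 fell in pif4-labelled libraries, and 1 rose and 15 fell in pklpif4-labelled libraries, with median log2 changes of -1.05, -0.63 and -2.69. The corresponding medians of the 10 indolic genes were 0.32, 0.10 and 0.23. Of all tested genes, 27.1% rose and 26.5% fell in pkl, and 16.2% rose and 16.2% fell in pif4-labelled libraries. In pklpif4-labelled libraries 27.2% rose and 27.7% fell. The difference between the lists was not tested. CYP83A1, the aliphatic counterpart of CYP83B1, fell by 1.25, 0.83 and 4.20 on the log2 scale in the 3 mutants, where CYP83B1 changed by 0.56, -0.11 and 0.46.

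Genes with the most similar pattern were sought over the 12 libraries among 15306 genes with a mean of at least 5 CPM, by Pearson's r of log2 CPM, as a description. The 12 libraries fall into 4 genotypes, so r mostly reflects 4 group means. The gene most like CYP81F4 was the overlapping AT4G37409 (r = 0.9996), then IRT1 (r = 0.977). IGMT1 was most like CYP71A16 (r = 0.994) with AT3G23510 and the calcium exchanger CAX1 next (r = 0.985 each). GSTF9 was most like RHS19 (r = 0.988), a root hair gene by name, with GSTF10 next (r = 0.986). CYP83B1 was most like DTX1 (r = 0.996), and CYP79B2 most like XTH17 (r = 0.959). The best r was 0.961 for CYP79B3, 0.962 for CYP81F2, 0.918 for MYB34, 0.899 for MYB51 and 0.871 for SOT16.

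On TAIR10, in the deposited table's own positions from first to last exon base, the regulators are MYB34 (AT5G60890) at chr5:24494691-24496351 and MYB51 (AT1G18570) at chr1:6389411-6391267. The core genes are CYP79B2 (AT4G39950) at chr4:18525246-18527579, CYP79B3 (AT2G22330) at chr2:9488554-9491187, CYP83B1 (AT4G31500) at chr4:15273471-15275310, GSTF9 (AT2G30860) at chr2:13138997-13140245 and SOT16 (AT1G74100) at chr1:27864345-27865694. The ring-decorating genes are CYP81F2 (AT5G57220) at chr5:23187840-23189857, CYP81F4 (AT4G37410) at chr4:17590772-17592920 and IGMT1 (AT1G21100) at chr1:7386839-7388428. The counts were taken over the exons of each gene, with summed exon lengths from 971 bases for GSTF9 to 1986 for CYP79B2.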

How the data were processed

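RNA sequencing libraries of 12 whole-seedling samples were compared, 3 per genotype. TAIR10 was the genome build and fastp, HISAT2 2.1.0 and SAMtools 1.6 were used, per the submitters' processing notes. Which program counted the reads, with what strand rule, and how reads with several matches were handled is not given in the sources used here. Whole-number counts per gene were deposited with exon positions and lengths, per the file headers. The authors also deposited FPKM, which divide the counts by exon length and library total. A further 24 columns, in 2 tables of red-light samples, held the same values (0 of 403344 counts differed) and were not used, so the growth condition of the libraries rests on the column names. Total counts were 37762216 to 56492669 per library, and 70.9% to 74.3% of counts from 1 to 8 were even, so an alternative used halved counts.

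edgeR's filterByExpr (at least 10 counts, a total of at least 15) chose the genes for 1 model of the 4 group means over 12 libraries, with TMM factors and the robust two-sided quasi-likelihood test (edgeR 4.0.16, limma 3.58.1, R 4.3.3). P-values were adjusted over all 22130 tested genes by Benjamini-Hochberg, with a threshold of 0.05. CPM are scaled by TMM factors. The SE is the log2 change divided by the square root of the F statistic, and 95% intervals are normal ones from it. The code was tested on simulated data. Alternatives were RLE factors, library totals, no filter, a mean of at least 5 CPM, DESeq2 1.42.0, limma-trend on log2(FPKM + 1) and log2(FPKM + 0.1), halved counts, the replicate number as a block, and each library left out. Shares of related genes were compared by exact permutation of FPKM shares. The labels call the replicates biological and say no more of their origin.

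The 10 genes, the lists and the tests were chosen with earlier results of these data known. Other pathway genes are named where they passed with a log2 change of at least 1 in any mutant against WT, or are close copies of the 10. GGP1, GGP3, SUR1, UGT74B1, APK1, APK2, CYP83A1, MAM3 and CYP79F2 were named after their values were seen. All 106 listed genes were matched in the RefSeq annotation of TAIR10.1, which gave promoters and coding sequences. The deposited TAIR10 introns were checked on that genome, and 98.94% of 81532 begin with GT and end with AG.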

Additional observations from a re-analysis of the deposited data

Results flagged for a closer look

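For 4 of the 10 genes the effect of pkl differed between the WT and the pif4-labelled background by edgeR's test of the interaction. Over all tested genes the interaction passed with a negative value for 16.5% and with a positive one for 15.3%. The pkl effect was lower in the pif4-labelled background by a log2 value of -1.81 for IGMT1, -1.51 for CYP81F4, -0.44 for CYP79B2 and -0.31 for GSTF9. IGMT1 and CYP81F4 rose with pkl in the WT background and fell with pkl in the pif4-labelled background. GSTF9 rose with pkl in both backgrounds, by a log2 value of 0.50 and 0.19. CYP79B2 rose with pkl by 0.40 in the WT background, and its change in the other was -0.04 (adjusted p = 0.618).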

How the results depend on the processing

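No change of the 10 genes turned direction where it passed the threshold in the main fit or the alternative. The same held for the other pathway genes named by size of change or as close copies. Turns of direction among changes that passed in neither fit were not counted. The median over all tested genes, near 0 throughout, changed sign under some settings, for example with library totals for pklpif4-labelled libraries against WT (-0.0018 to 0.018) and against pkl (0.0061 to -0.041) and pif4-labelled libraries (0.0072 to -0.0092), and with RLE factors against WT (0.0056). Each change of 1 of the 10 genes in 1 comparison was set against each alternative fit. The outcome, passed or not passed, was the same as in the main fit in 1211 cases. These include changes that passed in neither fit. In 33 cases a call was lost and in 10 it was gained. The count of genes lower in pkl, 1 (CYP79B3), was 0 with RLE factors, library totals, no filter, a mean of at least 5 CPM, DESeq2 and both limma fits on FPKM, and 0 to 1 with a library left out. It was 0 without any 1 WT replicate and without pkl replicate 1 or 2. CYP79B3 had an adjusted p of 0.0579 to 0.811 in those settings. The count lower in the pif4-labelled libraries, 2, was 1 with library totals, with a mean of at least 5 CPM (where CYP81F2 is not tested) and with limma on log2(FPKM + 0.1), and 0 with limma on log2(FPKM + 1). It was 1 to 2 with a library left out, 1 without WT replicate 3 or pif4 replicate 3, where CYP83B1 was lost. The count with a positive interaction, 0, was 0 to 1 with a library left out. It was 1 (MYB51, adjusted p = 0.0326 to 0.0419) without WT replicate 1, pkl replicate 2, pif4 replicate 3 or pklpif4 replicate 1. The interaction of CYP79B3 passed with library totals and both limma fits (adjusted p = 0.00346 to 0.0139). MYB51 passed in the pklpif4-labelled libraries against WT without pklpif4 replicate 1 (adjusted p = 0.0362). Over all tested genes, 3394 had a positive interaction, and 2257 with limma on log2(FPKM + 0.1). Where not given above, the cause was not tested.

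The deviations of samples with the same replicate number had r from -0.0237 to 0.0367 over 18 pairs, all under the 0.1 required, so the numbers were not taken as pairs. Of 36 library comparisons, 19 correlated best with their own number, where chance gives 12. Each pair of groups enters from both sides, so the 36 are not independent, and the excess was not tested. With the replicate block, 6 in place of 7 genes were lower in pklpif4-labelled than in pkl libraries, since CYP81F2 had an adjusted p of 0.0522, and the other counts of called genes among the 10 were equal to those without it. CYP81F2, with 52 to 227 counts per library, is the gene whose depth limits precision most. It also missed the threshold in that comparison with DESeq2, limma on log2(FPKM + 0.1) and without pklpif4 replicate 1 (adjusted p = 0.0549 to 0.0684).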
